A study of Mus musculus with 2 samples.

Results

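The genes of ribosomal proteins were examined on 2 single-colour Agilent arrays of mouse back skin, and those of the cytosolic ribosome were set against those of the mitochondrial ribosome. Members were all genes whose name on the array follows the pattern of cytosolic ribosomal proteins (Rpl, Rps or Rplp with a number; S6 kinases do not match it) or of mitochondrial ones (Mrpl or Mrps with a number). The pattern took 155 of 27840 gene names on the array, 80 cytosolic and 75 mitochondrial. One array carried skin injected with 1 µg of FGF18, a secreted fibroblast growth factor made in the hair follicle, and the other carried skin injected with phosphate-buffered saline (PBS). Both came from dorsal skin of full thickness of C3H/HeN males 61 days old, with no genetic change named in the labels. Hair growth (anagen) had been induced in both by depilation, the injection followed on day 4 and the skin was taken 24 h after it, 5 days after depilation. Per the design text the poly(A) RNA on an array is a pool of its group, whereas the extraction protocol describes mice handled one by one, and no number of mice per group is given. The PBS sample carries telogen (resting phase) in its title but anagen in its source and hair cycle labels.

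The cytosolic ribosome translates the messenger RNAs of the nucleus, and its proteins are made in matched amounts from transcripts that are among the most abundant of most cells. Many of these transcripts begin with a 5′ terminal oligopyrimidine (TOP) tract, a run of C and U bases through which the mTOR pathway controls their translation. The mitochondrial ribosome makes a few subunits of the respiratory chain from the mitochondrial genome, but its own proteins are encoded in the nucleus and imported. In skin, neither kind of ribosome is restricted to a single cell type. Transcripts of ribosomal proteins were not used here as markers of hair follicle compartments.

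The start regions of the 2 classes differ in their letters, and a few are shown for members described below from both ends of the order of ratios. The windows are from RefSeq (GRCm38.p6), which held 126 of the 155 members, 60 cytosolic and 66 mitochondrial. Each line runs 5′ to 3′ from 60 bases before to 20 bases after the annotated start, and capitals mark the longest run of C and T.
Rpl41, chr10:128549149-128549228, minus strand: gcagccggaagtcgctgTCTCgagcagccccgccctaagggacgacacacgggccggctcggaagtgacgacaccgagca
Rplp0, chr5:115559407-115559486, plus strand: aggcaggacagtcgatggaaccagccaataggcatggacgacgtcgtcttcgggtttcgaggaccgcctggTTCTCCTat
Rpl27a, chr7:109519135-109519214, plus strand: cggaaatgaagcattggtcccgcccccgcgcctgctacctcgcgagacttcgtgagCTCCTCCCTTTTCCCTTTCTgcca
Rpl13a, chr7:45128726-45128805, minus strand: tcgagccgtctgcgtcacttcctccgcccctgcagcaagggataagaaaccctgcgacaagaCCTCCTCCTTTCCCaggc
Rpl37, chr15:5116553-5116632, plus strand: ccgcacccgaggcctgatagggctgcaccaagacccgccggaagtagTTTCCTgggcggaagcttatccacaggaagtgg
Rpl4, chr9:64173327-64173406, plus strand: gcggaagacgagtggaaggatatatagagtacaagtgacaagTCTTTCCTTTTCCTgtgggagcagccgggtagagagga
Mrpl10, chr11:97041522-97041601, plus strand: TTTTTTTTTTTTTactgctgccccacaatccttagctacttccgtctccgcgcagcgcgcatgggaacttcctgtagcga
Mrpl3, chr9:105053208-105053287, plus strand: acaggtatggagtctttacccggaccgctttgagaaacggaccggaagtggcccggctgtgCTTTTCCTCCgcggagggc
Mrpl39, chr16:84735225-84735304, minus strand: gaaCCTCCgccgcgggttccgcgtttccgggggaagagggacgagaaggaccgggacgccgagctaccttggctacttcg
Rpl41, Rplp0 and Rpl27a were among the lowest cytosolic ratios, and their longest runs in the printed stretch were 4, 7 and 20 bases. Rpl13a, Rpl37 and Rpl4 had the highest cytosolic ratios, with longest runs of 14, 6 and 14 bases. Mrpl10 and Mrpl3, the highest mitochondrial ratios, had runs of 13 and 10 bases, and Mrpl39, the lowest, had 5. The Mrpl10 run is of T alone and begins 60 bases before the start, at the edge of the printed stretch. Among the cytosolic genes shown, both short and long runs stood at each end of the order.

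Over the whole classes, a run of at least 8 C or T bases within 50 bases of the annotated start was found in 56 of 71 cytosolic windows (78.9%), in 26 of 72 mitochondrial windows (36.1%) and in 35.7% of all 32851 RefSeq promoter windows. The core of the ETS motif that GABP binds, CCGGAAG, searched on both strands of the 300-base window, was found in 33.8% of cytosolic and 33.3% of mitochondrial windows, against 8.86% of all. The YY1 core AAGATGG was found in 16.9% and 16.7%, against 6.34% of all. The NRF1 core GCATGCG was found in 7.04% of cytosolic and 11.1% of mitochondrial windows, against 3.58% of all. The E box CACGTG, which Myc binds, was found in 8.45% and 9.72%, against 7.15% of all, and TATAAA in 9.86% and 6.94%, against 13.6%. Matches are letters in a window and no measure of binding. Some genes have several windows. The 51 cytosolic genes with such a C or T run had a median log2 ratio of -0.17 (FGF18 minus PBS), and the 9 without one had -0.13. The 24 mitochondrial genes with a run had -0.06, and the 42 without one had -0.09.

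All 155 members were measured, which here means that at least 1 probe was well above background on both arrays. Of their 259 probes, 243 passed on both, 1 only with FGF18, 1 only with PBS and 14 on neither. With 1 array per group there is no replicate and no test. Every log2 ratio below is the difference of 2 libraries after each array was scaled to its 75th percentile (a signal of 1020 with FGF18 and 896 with PBS). Array number limits the precision. The measured genes were put in order of their mean signal and split into 10 bins of equal size, bin 10 being the brightest. Spots of the same probe gave the only error that could be measured: probes printed at least 8 times had a median spot-to-spot SD of the log2 ratio of 0.024 at the signal of bin 10 (32 probes) and of 0.034 at that of bins 7 to 9 (64 probes). This covers printing and hybridization within the slide, not the mice, the labelling or the array. The shares of spots well above background were 62.4% for FGF18 and 61.5% for PBS, and 0 spots were saturated. Defining genes of skin were bright on both arrays (Krt5 at 192000 for FGF18 and 177000 for PBS, Krt14 at 141000 and 123000), as were those of skeletal muscle (Acta1 at 153000 and 129000). The 6 markers of interfollicular keratinocytes had a median log2 ratio of -0.31, from Lor at -0.58 to Krt14 at 0.01. Markers of the hair follicle had a median of -0.63, with 4 of 7 lower by 1.5-fold or more with FGF18 (4.95% of all genes were), and those of fibroblasts -0.48, with 3 of 6 lower. The 6 macrophage markers had a median of -0.30 and the 6 adipocyte markers 0.20. The 4 neutrophil markers ran from Cxcr2 at -0.61 to S100a8 at 1.82, and the part of cell makeup in the values below was not tested. In such bulk tissue, fewer cells of a type and less RNA per cell cannot be told apart.

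Cytosolic ribosomal protein genes were slightly lower on the FGF18 array as a class, and mitochondrial ones lay at the level of all genes. The 80 cytosolic genes had a median log2 ratio of -0.16 (quartiles -0.24 and -0.10), and the 75 mitochondrial genes had -0.08 (quartiles -0.15 and 0.03). The 16693 genes measured on both arrays had a median of -0.08, with quartiles of -0.23 and 0.08, so the class medians are to be read against that value and not against 0. Relative to all genes, the cytosolic median was at -0.09 and the mitochondrial median at 0.00. Of the cytosolic genes, 65 of 80 (81.2%) lay below the median of all genes, against 38 of 75 mitochondrial genes (50.7%), 55% of bin 10 and, by construction, 50% of all genes. The members were also close together: the SD over genes was 0.15 for cytosolic, 0.14 for mitochondrial and 0.40 for all genes. The spread of all genes depends on signal, and in bin 10 the SD was 0.31.

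The shift was far smaller than any usual threshold. At a fold of 1.5, 0 cytosolic and 0 mitochondrial genes were lower on the FGF18 array, where 4.95% of all genes were. In the other direction 1 cytosolic gene, Rpl13a, and 0 mitochondrial genes were past 1.5-fold, where 3.74% of all genes were. These shares depend on signal: among the 1670 genes of bin 10, which held 68 of the cytosolic and 22 of the mitochondrial genes, 2.87% were at least 1.5-fold lower and 2.57% higher. At a difference of 25% (FGF18 over PBS for higher genes, PBS over FGF18 for lower ones), 4 cytosolic genes (Rpl41, Rplp0 and Rpl27a among them) and 1 mitochondrial gene (Mrpl39) were lower, against 15.9% of all genes and 9.7% of bin 10. In the other direction 1 cytosolic gene and 2 mitochondrial genes (Mrpl10 and Mrpl3) were higher, against 8.76% of all genes and 5.33% of bin 10. Rplp0 is counted by the probe of that name, while other probes of its transcript, named Arbp, stood at -0.15 and -0.27.

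The sign of the class medians rests on the scaling. Before any scaling, 33 of 80 cytosolic genes had the lower signal on the FGF18 array, 44 had the higher and the rest were equal, while 11 of 75 mitochondrial genes were lower and 64 higher. Over all genes 31.2% were lower before scaling, and in bin 10 28.1%. Unscaled, the cytosolic median was 0.02, the mitochondrial median 0.11 and the median of all genes 0.11. A constant added to every ratio leaves the gap between the class medians as it is, -0.09 (cytosolic minus mitochondrial). Quantile normalization, which gives both arrays the same distribution of signals, reduced the gap to -0.01. With no filter on dim probes the median of all genes was -0.18, and the cytosolic class lay 0.02 above it.

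**Figure D1:**
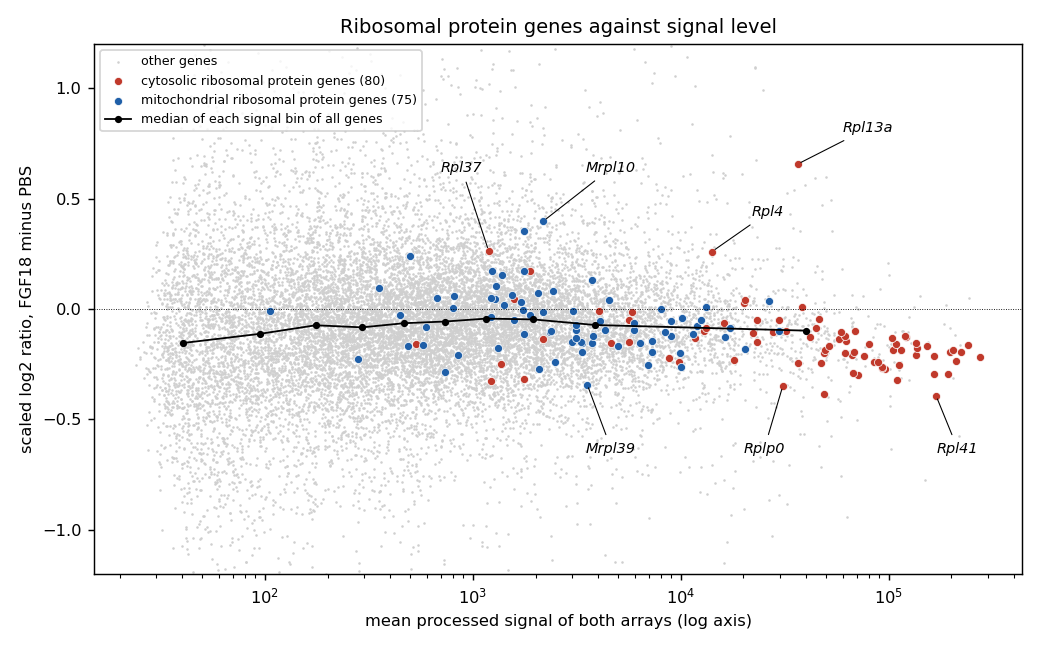
Scaled log2 ratio (FGF18 minus PBS) of each gene against its mean processed signal on both arrays (log axis), with 80 cytosolic genes in red, 75 mitochondrial genes in blue, other genes in grey and the median of each of 10 signal bins as a black line; 272 of 16538 other genes lie outside the axis. Cytosolic genes crowd at the bright end, most of them slightly below the line, with Rpl13a far above it.

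Signal level differed between the classes, so it was taken into account. A probe's signal also depends on its sequence, so the levels say where a gene sits on the scanner's scale and not how abundant its transcript is. The mean signal of both arrays had a median of 50500 over cytosolic genes (range 531 to 275000) and of 3000 over mitochondrial genes (range 106 to 29600). The median log2 ratio of all genes was -0.15 in bin 1, the dimmest, -0.04 in bin 7 and -0.10 in bin 10. Set against the median of its own bin, the typical cytosolic gene was at -0.08 and the typical mitochondrial gene at 0.00, and 62 of 80 cytosolic and 36 of 75 mitochondrial genes lay below the median of their own bin.

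Within bin 10, 68 cytosolic genes had a median of -0.18 and 22 mitochondrial genes a median of -0.10, a difference of -0.08. In bins 7 to 9, 11 cytosolic genes had a median of -0.13 and 40 mitochondrial genes a median of -0.04, a difference of -0.09. The gap was uneven between these bins: it was -0.30 in bin 7 (3 cytosolic genes), -0.03 in bin 8 (4 genes) and 0.03 in bin 9 (4 genes). A gene's signal is averaged over its probes, so a gene can fall in a bin where it has no probe. In bin 7 these were Rpl37 (probes of 30700 and 63.1 with FGF18), Rpl22l1 (43400 and 41.4) and Rpl27a (8460 and 159). The bins thus match the averaged signal of genes and not the signal of each probe.

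Finer classes of signal, whose bounds were chosen after seeing the data, split bin 10 further. Between 5000 and 20000, 11 cytosolic genes had a median of -0.10, 19 mitochondrial genes -0.11 and 1028 other genes with a current symbol -0.08. These other genes leave out any described as a ribosomal protein. Between 20000 and 50000, 19 cytosolic genes had a median of -0.11, 3 mitochondrial genes -0.10 and 189 other genes -0.09. In these 2 classes both kinds of ribosomal protein gene lay close to other genes of like averaged signal. Some cytosolic genes fall between 5000 and 20000 only as the mean of a bright and a dim probe. Examples are Rps20 (236000 and 162 with FGF18) and Rps12 (165000 and 454), whose bright probes are over 50000. At 50000 and over, 40 cytosolic genes had a median of -0.19 (quartiles -0.24 and -0.16) and 64 other genes had -0.13 (quartiles -0.25 and -0.06), and no mitochondrial gene was that bright. With genes of no current symbol and genes described as ribosomal proteins under other names included, the 111 other genes had -0.16. All 40 were below 0, between -0.39 and -0.10, with an SD of 0.065 against 0.23 for the other genes. Between 2000 and 5000, 3 cytosolic genes had a median of -0.13, 24 mitochondrial genes -0.10 and 1535 other genes -0.06. Between 500 and 2000, 7 cytosolic genes had a median of -0.16 (quartiles -0.28 and 0.11), 23 mitochondrial genes 0.02 and 3483 other genes -0.04. These last 2 classes hold few cytosolic genes.

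**Figure D2:**
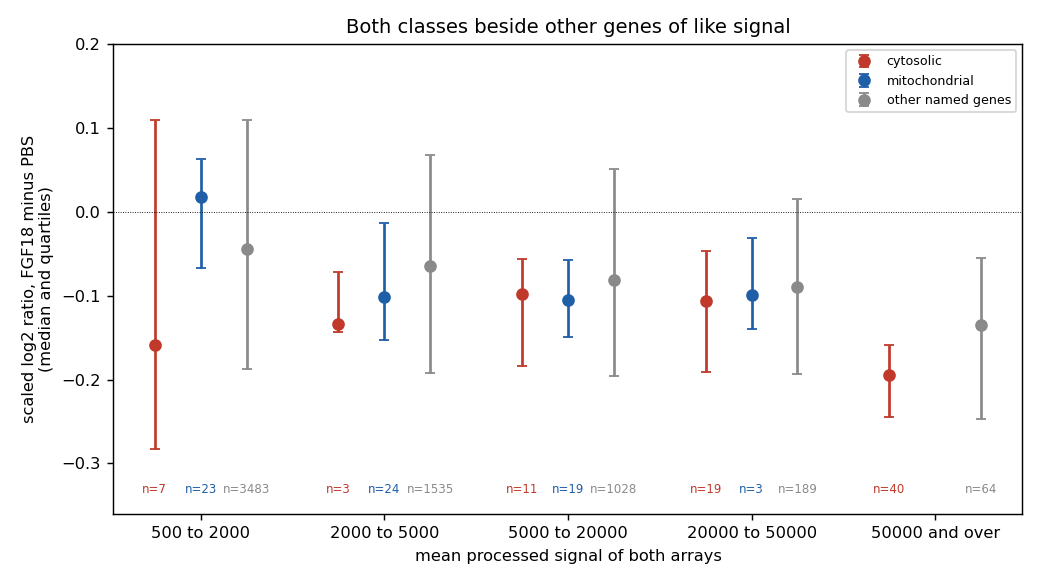
Median and quartiles of the scaled log2 ratio (FGF18 minus PBS) of cytosolic, mitochondrial and other named genes in 5 classes of mean processed signal, with the number of genes under each. The 3 groups lie together between 5000 and 50000, and the 40 brightest cytosolic genes lie at -0.19 beside -0.13 for the 64 other genes.

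Among the proteins of the large cytosolic subunit, the lowest ratio was that of Rpl41, which encodes one of the shortest ribosomal proteins. It gave a signal of 157000 with FGF18 and 181000 with PBS, a log2 ratio of -0.39. Rplp0 followed and is described with the stalk below. Rpl27a had signals of 1160 and 1280 (log2 ratio -0.33), where both of its probes were lower, at -0.41 and -0.25. Rpl26, whose product in human cells also binds the messenger RNA of p53, had signals of 104000 and 114000 (-0.32). Rpl31 had 1680 and 1840 (-0.32). Rpl41, Rpl27a, Rpl26 and Rpl31 each had the lower signal on the FGF18 array even before scaling.

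The stalk of the large subunit, which recruits elongation factors, consists of a base, Rplp0, and the acidic proteins Rplp1 and Rplp2. The probe named Rplp0 was printed as 10 spots, with FGF18 signals of 27000, 29500 and 30100 (lowest, median and highest) and PBS signals of 30400, 32900 and 34300. The FGF18 spots all lay below the PBS spots, and the spot ratios had a mean of -0.35 ± 0.024 (SD, 10 spots of 1 probe). Another 2 probes that the array names Arbp, whose accession is now Rplp0, stood at -0.15 (229000 for FGF18, 223000 for PBS) and -0.27 (123000 and 130000). The 3 probes of this transcript thus differed by more than the spot error. Rplp1 had signals of 243000 and 239000 (-0.16) and Rplp2 of 204000 and 204000 (-0.19).

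Rpl13a was the exception in the class. Its 1 probe had a signal of 48800 with FGF18 and 27200 with PBS, a log2 ratio of 0.66, or 1.58-fold higher with FGF18. In human monocytic cells its product leaves the ribosome after interferon-gamma treatment and joins a complex that silences translation of inflammatory transcripts. The next highest ratios were smaller. Rpl4, which encodes a protein that lines the exit tunnel, had signals of 16500 and 12100 (0.26), also by 1 probe. Without Rpl13a the highest cytosolic ratio was 0.26, the class median was -0.17 and the SD over genes 0.12. Over 14 settings the ratio of Rpl13a lay between 0.66 and 0.84. With 1 bright probe, the settings of filter and probe choice could not change it, and scaling by a constant moved it with all genes.

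Rpl37 also had a ratio of 0.26, but its probes disagreed. The bright probe had 30700 with FGF18 and 33600 with PBS (-0.32), and the dim one had 63.1 and 30.9 (0.84). Taking the brightest probe alone therefore turned the direction of Rpl37. Rpl13 showed the same split, with 127000 and 126000 (-0.18) on its brightest probe and 1060 and 647 (0.53) on its dimmest, so its mean of 0.04 hides 2 directions. Rpl7l1, a relative of Rpl7, stood at 0.05 (signals of 1710 and 1460). Over the 37 cytosolic genes with several measured probes, the brightest probe was the lower one in 24 and the higher one in 13, with a median difference of -0.04. Over the 28 such mitochondrial genes it was lower in 9 and higher in 19, with a median difference of 0.04. The probe range within a gene had a median of 0.08 for cytosolic and 0.14 for mitochondrial genes, and it passed 0.5 in 2 and 6 genes.

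The small cytosolic subunit, which decodes the messenger RNA, had a median of -0.19 over 31 genes (SD 0.10), and the large subunit, which forms the peptide bond, had -0.16 over 49 genes (SD 0.18). The difference between the subunit medians (small minus large) was -0.03. In the small subunit, Rps15a was highest at 0.17, again from 2 probes that disagreed: 73300 and 64800 (-0.01), and 62.7 and 43.1 (0.35). Of the small-subunit genes 27 of 31 lay below the median of all genes, and of the large-subunit genes 38 of 49.

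**Figure D3:**
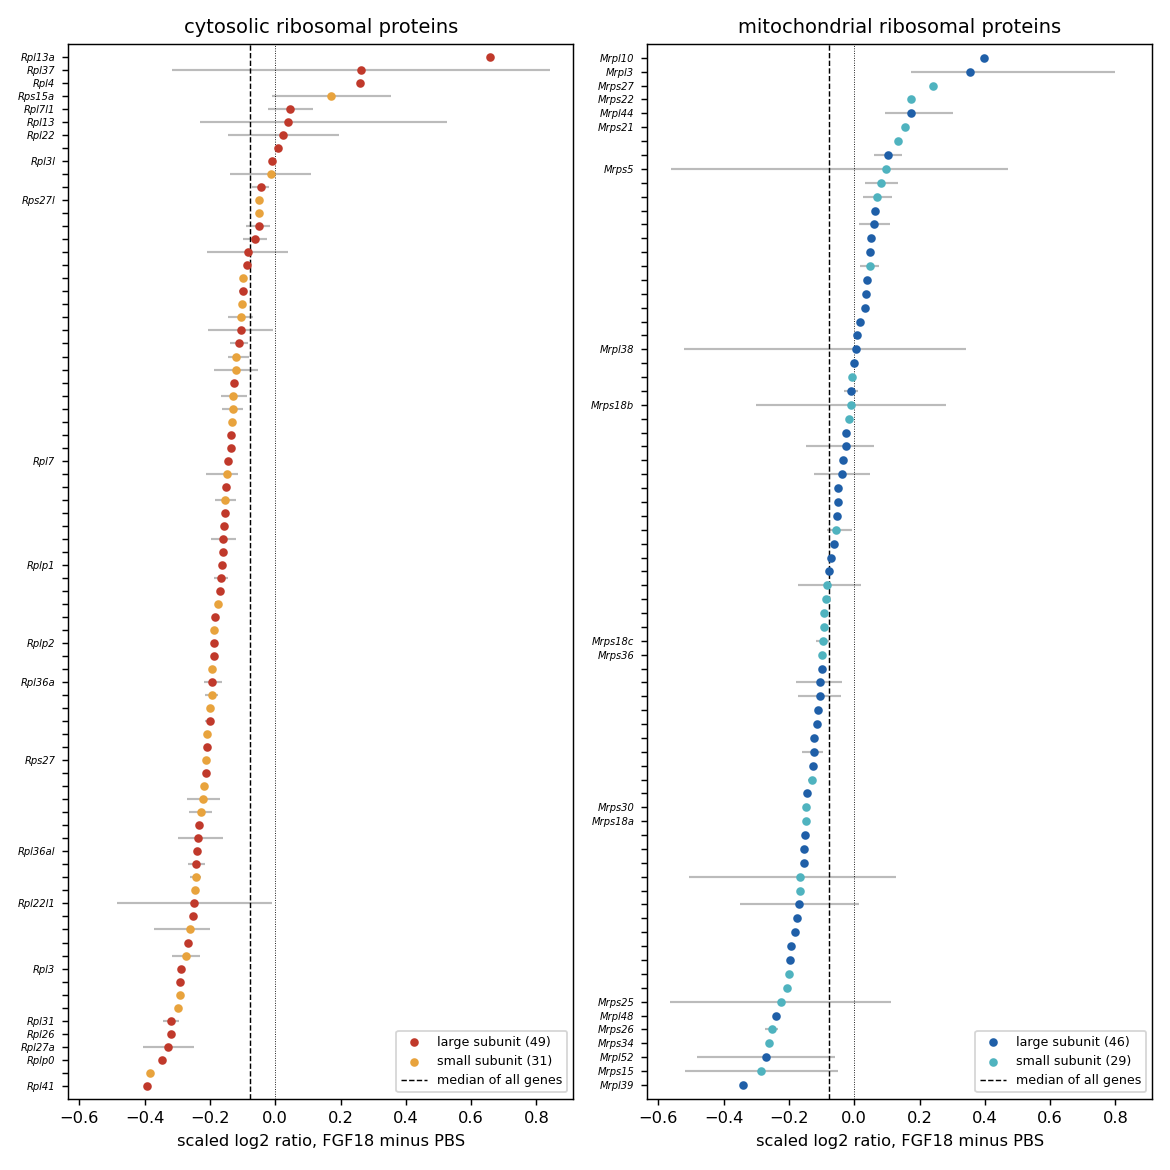
All 80 cytosolic and 75 mitochondrial genes in order of their scaled log2 ratio (FGF18 minus PBS), with points for the gene, coloured by subunit, and grey lines from the lowest to the highest probe of genes with several, and with names for the members described in the text. Most cytosolic genes lie left of the median of all genes (dashed), while the mitochondrial genes lie on both sides of it.

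Paralogs were read beside their parent genes. Rpl3l, which replaces Rpl3 in striated muscle, had signals of 4300 and 3800 (-0.01), and Rpl3 itself had 64900 and 69600 (-0.29). Skeletal muscle markers lay between -0.12 (Tnnt3) and 0.28 (Ckm), with a median of 0.04 over 6 genes, and their part in the Rpl3l value was not tested. Rpl22l1 had a ratio of -0.25 from 2 probes that disagreed. Its bright probe was at -0.01 (43400 and 38400) and its dim one at -0.48 (41.4 and 50.9). Rpl22 had 0.03 from 2 probes at -0.15 and 0.20. Rps27l, which p53 induces, stood at -0.05 (30900 and 28100) and Rps27 at -0.21 (163000 and 166000). Rpl36al and Rpl36a were at -0.24 and -0.19, and Rpl7l1 and Rpl7 at 0.05 and -0.14. Transcripts of cytosolic ribosomal proteins have many processed pseudogenes, and a probe can bind close relatives, so values of paralog pairs are uncertain.

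Mitochondrial members spread evenly around the level of all genes. The large subunit had a median of -0.06 over 46 genes (SD 0.14) and the small subunit -0.09 over 29 genes (SD 0.14), a difference of -0.04 (small minus large). Mrpl10, which anchors the stalk of the mitochondrial large subunit, was highest with signals of 2670 in FGF18-treated and 1780 in PBS-treated skin (log2 ratio 0.40, 1.32-fold higher). Mrpl3, a core protein of the same subunit, followed at 0.35. All 4 of its probes were higher on the FGF18 array, at 10600 and 8220 (0.18) for one, 10900 and 7970 (0.26) for another, 2910 and 1470 (0.80) for the third and 60.6 and 47.2 (0.17) for the dimmest.

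Further high mitochondrial ratios were those of Mrps27, a protein of the pentatricopeptide repeat family, at signals of 580 and 431 (0.24), and Mrps22 at 1990 and 1550 (0.17). Mrpl44, which carries a ribonuclease III fold, was at 1400 and 1090 (0.17) with its 3 probes between 0.10 and 0.30, and Mrps21 at 1560 and 1230 (0.16). At the other end, Mrpl39 had 3360 and 3740 (-0.34) by 1 probe. Mrps15 stood at -0.28 from 2 probes, of which the bright one was at -0.05 and the dim one at -0.52. Mrpl52 (-0.27) showed the same, with -0.06 on its bright probe and -0.48 on its dim probe. Mrps34 had 9780 and 10300 (-0.26), Mrps26 had 6820 and 7150 (-0.25) and Mrpl48 had 2440 and 2530 (-0.24).

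Among mitochondrial genes, the probes disagreed most in Mrps5, Mrpl38 and Mrps25. For Mrps5 the probe with 2690 in the FGF18 sample and 1760 in the PBS sample was at 0.43, and another with 1110 and 703 was at 0.47, whereas the one with 186 and 241 was at -0.56 and the dimmest (41.1 and 34.9) at 0.05. For Mrpl38 the 3 probes ran from -0.52 (165 and 208) to 0.34 (1360 and 943). For Mrps25 the bright probe was at 0.11 (1860 and 1510) and the dim one at -0.56 (41.1 and 53.4). The paralogs Mrps18a, Mrps18b and Mrps18c were at -0.15, -0.01 and -0.10. Subunits were assigned by name here, although Mrps18a and Mrps30 are placed in the large subunit in structures, and Mrps36 has since been assigned to the oxoglutarate dehydrogenase complex. Mrps30 was at -0.15 and Mrps36 at -0.10.

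Other genes of translation were taken from lists chosen with earlier results of these data known. Other transcripts reported to carry a TOP tract had a median of -0.15 over 20 measured genes, of which 14 lay below the median of all genes. Some of them are also in the lists of initiation factors, elongation factors and ribosome biogenesis. Fau, whose product is cleaved into ribosomal protein S30, was lowest at 195000 with FGF18 and 213000 with PBS (-0.31). Rpsa, a small-subunit protein outside the name pattern, was at -0.23 (2140 and 2210), and Rack1, a scaffold on the small subunit, at -0.17 (77400 and 76600). Eef1a1, the elongation factor that delivers aminoacyl-tRNA, was at 0.00 (75400 and 66300), and Eif4b, a cofactor of the eIF4A helicase, was highest at 0.19, with probes from -0.03 to 0.54.

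Initiation factors had a median of -0.17 over 34 genes, close to the cytosolic ribosomal proteins, with 22 below the median of all genes and 0 past 1.5-fold either way, beside 4.95% of all genes lower and 3.74% higher. Eif6, which keeps the subunits apart, was lowest at -0.40 (882 and 1020) and Eif2b2, a subunit of the exchange factor eIF2B, highest at 0.30 (13400 and 9590). Elongation and termination factors were at -0.07 over 13 genes, from Eif5a2 at -0.34 to Eef1a2 at 0.25. Ribosome biogenesis genes, which act in the nucleolus, were at -0.07 over 75 genes, with 37 below the median of all genes and 0 past 1.5-fold. Ddx21, a nucleolar helicase, was lowest at -0.42 (382 and 449) and Rrp12, which acts in export of pre-ribosomes, highest at 0.41 (252 and 167). Cytosolic aminoacyl-tRNA synthetases were at 0.00 over 22 genes. Their lowest was Hars at -0.53 (526 and 665) and their highest Qars at 0.57 (1150 and 684).

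The mTOR and S6 kinase list, which covers the pathway that controls TOP translation, had a median of -0.02 over 27 genes. Its 1 member past 1.5-fold was Ddit4, a stress-induced inhibitor of mTOR, at 30900 with FGF18 and 17000 with PBS (0.68, 1.60-fold higher). Of all genes, 3.74% were at least 1.5-fold higher. Deptor, another mTOR inhibitor, was lowest at -0.55 (1210 and 1560). On the mitochondrial side, translation factors were at 0.07 over 16 genes, from Tufm at -0.24 to Lrpprc, which stabilises mitochondrial messenger RNA, at 0.31. Assembly factors were at -0.07 over 22 genes, from Eral1 at -0.31 to Mtg1 at 0.38. Regulators of mitochondrial biogenesis were at -0.02 over 14 genes, from Esrra at -0.23 to Polg at 0.24.

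Mitochondrial aminoacyl-tRNA synthetases had a median of -0.05 over 17 genes, with Pars2 highest at 0.25. Lars2 was lowest, at 121000 with FGF18 and 182000 with PBS (-0.78, 1.71-fold lower), by 1 probe whose signal was of the order of the brightest ribosomal protein probes. Of 7 mitochondrial ribosome members under other names (median -0.13), Ptcd3 was lowest at -0.63 from 2 probes at -1.17 and -0.09, and Aurkaip1 highest at 0.16. The medians of these lists are descriptions beside -0.08 for all genes, and no list was tested. Relative to all genes, the initiation factors lay between -0.10 and 0.01 and the other TOP transcripts between -0.11 and 0.02 over the settings tried, so their lower position was not kept under each.

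**Figure D4:**
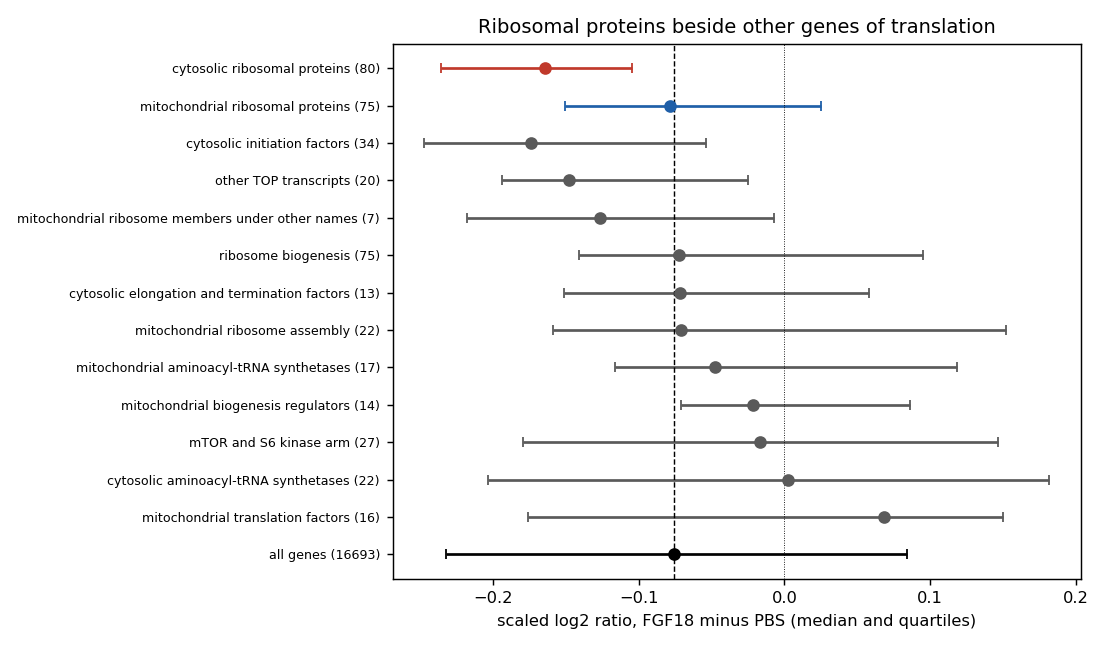
Median and quartiles of the scaled log2 ratio (FGF18 minus PBS) for both classes of ribosomal proteins, 11 lists of other genes of translation and all genes (dashed line), with the number of measured genes in brackets. Initiation factors and other TOP transcripts lie near the cytosolic ribosomal proteins, and most other lists lie at or above the median of all genes.

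**Figure D5:**
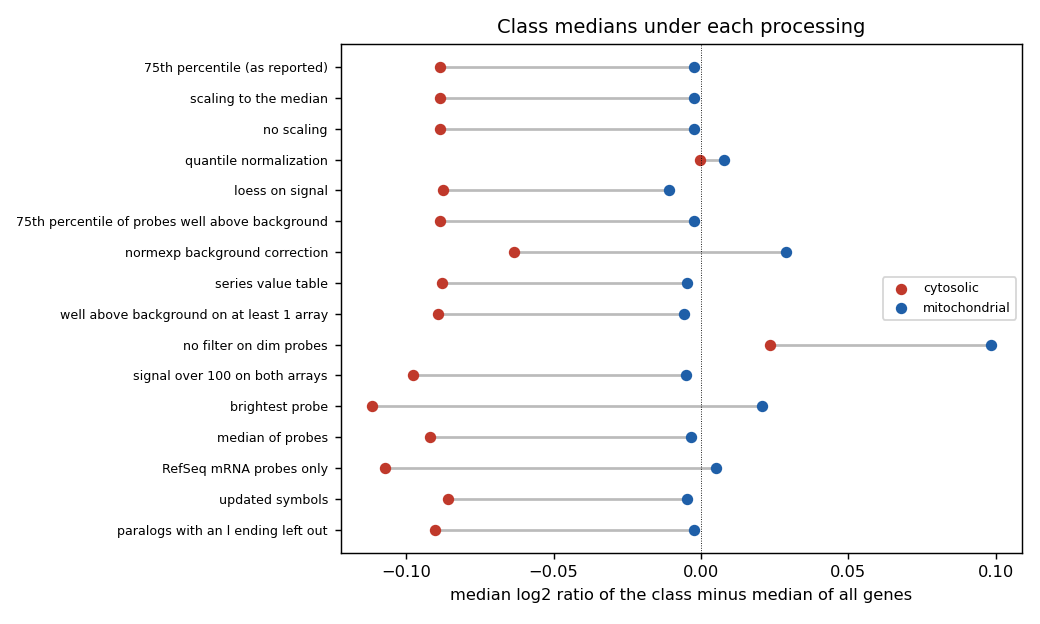
Median log2 ratio of the cytosolic (red) and mitochondrial (blue) class minus the median of all genes (axis) under 16 ways of processing the arrays. The cytosolic class lies left of the mitochondrial class in each, and the gap nearly closes with quantile normalization (0.00 and 0.01). Scalings by a constant cannot change the gap.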

How the data were processed

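Spots were quantified in Agilent's Feature Extraction software (9.5.3.1, array design 014868), per the file headers. The deposited intensity values include spot means, local background and a processed signal, background-subtracted, detrended and written to 3 digits. Per the file headers, the deposited files also hold other columns, such as flags for outliers and spots well above background. The authors' deposited value table is a ratio: set against the scanner values, it was the processed signal divided by 83.8 (FGF18) and 80.0 (PBS). It has no unmapped columns.

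Here log2 of the processed signal was scaled to each array's 75th percentile. Control and outlier spots were left out, and spots of a probe and probes of a gene were averaged. Genes needed a probe with at least a share of 0.5 of its spots well above background on both arrays. Python 3.11.15, R 4.3.3 and limma 3.58.1 were used, and the steps were tested on simulated data. No test was possible at 1 array a group. Members, lists and signal classes were chosen with earlier results of these data known. Named were the 6 highest and 6 lowest members of each class, the stalk, paralogs, members whose probes disagreed and each list's extremes, with others named after their values were seen. Some genes that these rules would name are not reported here. Members kept their names on the array, of which 154 are current in RefSeq (GRCm38.p6). Names updated through RefSeq served to find list genes and promoter windows, and for an alternative with 82 cytosolic and 78 mitochondrial genes. Alternatives covered scaling, background, filters, probe choice, names and fold.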

Additional observations from a re-analysis of the deposited data

How the results depend on the processing

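No paired analysis was possible because each group has 1 array. Of 214 recomputed values, 170 moved by less than the spot error (0.024 for cytosolic medians, 0.034 for mitochondrial ones, 0.042 for their difference) or, for counts, by at most 1.5 times. The spot error is that of single probes and does not measure the error of a class median. Some of these values could not move by construction, so the count is no measure of stability. The cytosolic minus mitochondrial difference was below 0 in 16 of 16 alternatives, lowest with the brightest probe (-0.1325) and highest with quantile normalization (-0.0082), which also put the cytosolic genes at -0.0042 against genes of like signal. The cause was not tested. Scaling to the median, no scaling and the percentile over probes well above background only add a constant to every ratio and cannot change this difference. The series value table does the same but for rounding.

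Scaling moved every class together, since it moved the median of all genes between -0.08 and 0.11. Medians are given for the cytosolic class, its large and its small subunit, then for the mitochondrial class, its large and its small subunit. With no scaling they were 0.0224, 0.0267, 0.0000, 0.1087, 0.1300 and 0.0940, all but the cytosolic small subunit with the sign turned. Scaling to the median gave -0.0601, -0.0557, -0.0825, 0.0262, 0.0475 and 0.0116, and the series value table gave -0.0443, -0.0409, -0.0658, 0.0388, 0.0623 and 0.0285, so that the mitochondrial sign turned in both. Loess gave -0.0840, -0.0808, -0.1081, -0.0074, 0.0092 (sign turned) and -0.0273, and quantile normalization -0.0334, -0.0286, -0.0369, -0.0252, -0.0223 and -0.0381. The percentile over probes well above background gave cytosolic medians of -0.1333, -0.1289 and -0.1557. The cytosolic small subunit was at -0.1584 after normexp, and the mitochondrial small subunit at -0.0548 with RefSeq probes only.

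The count of cytosolic genes past the fold and higher with FGF18 was 0 without Rpl13a, an alternative chosen after seeing the data, and 0 at a fold of 2. At a difference of 25%, 4 cytosolic genes and 1 mitochondrial gene were lower and 2 mitochondrial genes higher. Of all genes, 15.9% were lower and 8.76% higher by that much. At 1.5-fold with no filter on dim probes, 1 mitochondrial gene was higher, where 3.74% of all genes were with the filter. It was Mrpl41, through a probe well above background on neither array (20 with FGF18 and 6.11 with PBS). Its measured probe was at -0.05. Precision is limited by 1 array per group and, for dim probes, by signal over background.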
